A study of Mus musculus with 2 samples.

Results

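The genes described here are the potassium channel genes, taken as every gene on the microarray whose name starts with Kcn followed by a letter. The array carries 98 such genes, measured by 181 probes, of 37074 gene names in all, and each of the 98 is also a symbol of the RefSeq gene table of assembly GRCm38.p6. The arrays hold RNA of MCMs, mouse cardiomyocytes from a commercial supplier that had been passaged in culture, kept in medium with 2% serum. The siRNA-NC group was transfected with a negative control siRNA and the siRNA-*Ppp2r5d* group with siRNA against *Ppp2r5d*, a regulatory subunit of protein phosphatase 2A. Both groups were moved to glucose-free medium 48 h after transfection and collected at 64 h, and the labels name neither genotype, strain nor age. There was 1 array per group, both on 1 slide and in 1 scan, so each fold change compares a pair of cultures, has no replicate check and carries no p-value.

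Most potassium channel genes were either not detected in MCMs or differed little between the groups. Well above background means that the scanner software marked a spot as clearly brighter than its surroundings, and 53 of the 98 *Kcn* genes were so marked on at least 1 array. The largest difference toward siRNA-*Ppp2r5d* among genes measured on both arrays was in *Kcnmb2*, which encodes a beta subunit of the large-conductance calcium-activated channel and was 2.39-fold higher. *Kcnq3*, a voltage-gated channel gene of the M-current family, was at least 3.08-fold lower on 1 dim probe of 2. Its other probe was not well above background on either array. After normexp background correction the log2 fold change of *Kcnq3* was -0.34. Genes of auxiliary subunits, which modify channels without forming a pore, were lower in 7 of 8 cases, beside 46.0% of all genes on both arrays. After normexp correction 5 of 8 were lower, and with a scanner flag that admits dimmer spots 6 were lower and 4 higher. Only *Kcnab1*, *Kcnip3* and *Kcnmb4* of the lower ones exceeded 2 scanner errors. The pore-forming classes had medians closer to 0, and among them the inward rectifiers were lower in 4 of 5 cases. Of the lower inward rectifiers, *Kcnj10* and *Kcnj14* were within 1 scanner error of 0. After normexp correction 3 inward rectifiers were lower and 2 higher. Genes toward the lower side included *Kcnip3*, *Kcnk5*, *Kcnab1* and, through 1 of its 2 probes, *Kcnh2*.

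Potassium channels let potassium leave or enter the cell and so set the resting potential and end the action potential. Voltage-gated channels open on depolarization and carry the transient outward and delayed rectifier currents of the heart, inward rectifiers hold the resting potential, two-pore channels carry leak currents, and calcium-activated channels tie the membrane potential to cytosolic calcium. Auxiliary subunits bind to the pore-forming proteins and change their gating or their transport to the membrane.

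Each gene is read through probes of 60 bases, and which probe lit up matters for several results below. The first 30 bases of 12 probes are shown in lower case for the 4 genes or gene families on which the results turn most. The 3 probes of *Kcnmb2* lie on the plus strand of chromosome 3 of build mm9, from 32097218 to 32098680, and all 3 were well above background on both arrays.
*Kcnmb2* probe at 32097218: tatggtgaaactaactcagtacctctccct
*Kcnmb2* probe at 32097625: gtttccagacttcctgaagacaagattttt
*Kcnmb2* probe at 32098621: ggaagcagaatattgtaattcatagtgtga
The 3 probes of *Kcnn4*, the intermediate-conductance calcium-activated channel, lie on the plus strand of chromosome 7 from 25166737 to 25170220 and gave nearly the same fold change.
*Kcnn4* probe at 25166737: aaacacgtgcacaacttcatgatggacatc
*Kcnn4* probe at 25169184: gccacatagctccacatgaactcacagaag
*Kcnn4* probe at 25170161: gccagaagagggtacagggtgctgctcacc
The 2 probes of *Kcnh2*, the ERG channel of the rapid delayed rectifier current, lie on the minus strand of chromosome 5 and differed in their fold change.
*Kcnh2* probe at 23825407: tgatgactatgaataataaataattatcct
*Kcnh2* probe at 23827188: tgaacaggctggaaacccggctaagtgcag
The *Kcnq* family is shown by the detected probes of 3 of its genes, and by the second probe of *Kcnq3*, which was not well above background on either array.
*Kcnq1* probe at 150334693 of chromosome 7, plus strand: cccaagaacatgccaggaggcttcctcatt
*Kcnq3* probe at 66114648 of chromosome 15, minus strand: tatgccttctccaggcatagaattatgtgt
*Kcnq3* second probe, not well above background: aactggagcggtctccaagtggcttcagca
*Kcnq5* probe at 21567995 of chromosome 1, minus strand: ggaccagaaaagaaatttccccctgacaca
The coordinates are those of the array's annotation. Whether a probe lies in a coding exon or an untranslated region was not analysed here.

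The knockdown target was lower on its array. *Ppp2r5d* gave intensities of 4700 with siRNA-NC and 676 with siRNA-*Ppp2r5d*, a log2 fold change of -2.61 after each array was scaled to its 75th percentile. The percentile lay at 592 on the first array and 518 on the second. Of 59305 spots that were not controls, 35544 and 35174 were well above background and none was saturated. Among 13 cardiomyocyte markers, 6 were well above background on both arrays, 3 on the siRNA-*Ppp2r5d* array alone, and *Myl2*, *Myl7*, *Actn2* and *Pln* on neither. The summed intensity of this list, taking the brightest probe of each marker, was 9610 with siRNA-NC and 8930 with siRNA-*Ppp2r5d*. Of 9 fibroblast markers 7 were detected on both arrays, with sums of 303000 and 283000, and all 6 smooth muscle and myofibroblast markers were, with sums of 148000 and 135000. Macrophage markers had sums of 4010 and 2620, with 4 of 5 on both arrays, neuron and glia markers had 3120 and 2740, with 5 of 6 on both arrays, and endothelial markers had 92.4 and 80.6, with 4 of 6 on neither. These sums are intensities before scaling. After scaling, the median log2 fold change of markers on both arrays was 0.25 for cardiomyocytes, from -0.19 for *Tnni3* to 0.89 for *Ttn*. It was -0.050 for fibroblasts, from -0.31 for *Col1a2* to 1.08 for *Lum*. For smooth muscle and myofibroblasts it was -0.067, from -0.42 for *Des* to 2.41 for *Cnn1*. For macrophages it was -0.37, from -0.77 for *Cd68* to 0.13 for *Ptprc*. *Tcf21*, *Thy1*, *Adgre1*, *S100b*, *Cdh5*, *Kdr*, *Vwf* and *Emcn* were on neither array. The part of these other cell types in the *Kcn* values was not tested, and in RNA of a whole culture fewer cells of a type and less RNA per cell cannot be told apart.

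Both arrays detected 42 of the 98 *Kcn* genes, while 7 were detected on the siRNA-NC array alone, 4 on the siRNA-*Ppp2r5d* array alone, and 45 on neither. The detected share was 54.1%, beside 70.0% of the 19344 protein-coding symbols on the array and 58.5% of all gene names. By class, 21 of 40 voltage-gated genes were detected, 7 of 15 inward rectifier genes, 6 of 14 two-pore genes and 7 of 8 calcium-activated genes. Auxiliary subunits were detected in 9 of 16 cases. The remaining 5 names are the channel regulator *Kcnrg* and the non-coding or antisense RNAs *Kcnq1ot1*, *Kcnd3os*, *Kcnmb4os1* and *Kcnmb4os2*, of which 3 were detected. Classes were assigned by gene name, so the calcium-activated class also holds the sodium-activated *Kcnt1* and *Kcnt2* and the sperm channel *Kcnu1*, which belong to the same protein family.

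The signals were mostly weak. Of the 42 *Kcn* genes on both arrays, 22 (52.4%) had a mean intensity under 100, against 25.9% of all genes on both arrays. The scanner software gives each spot an error, which is carried here into the log2 fold change and is called the scanner error. It was near 0.20 for a bright probe and up to 0.43 for the probe of *Kcnj10*. All *Kcn* probes have 1 spot. Other probes with repeated spots showed an SD of the log2 fold change between spots with a median of 0.18 over 6 probes below an intensity of 100 and 0.035 over 275 probes above 1000. These errors cover the spot and the scan and not the culture. The plot of intensities shows 66 of the 72 *Kcn* probes that either array detected.

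**Figure D1:**
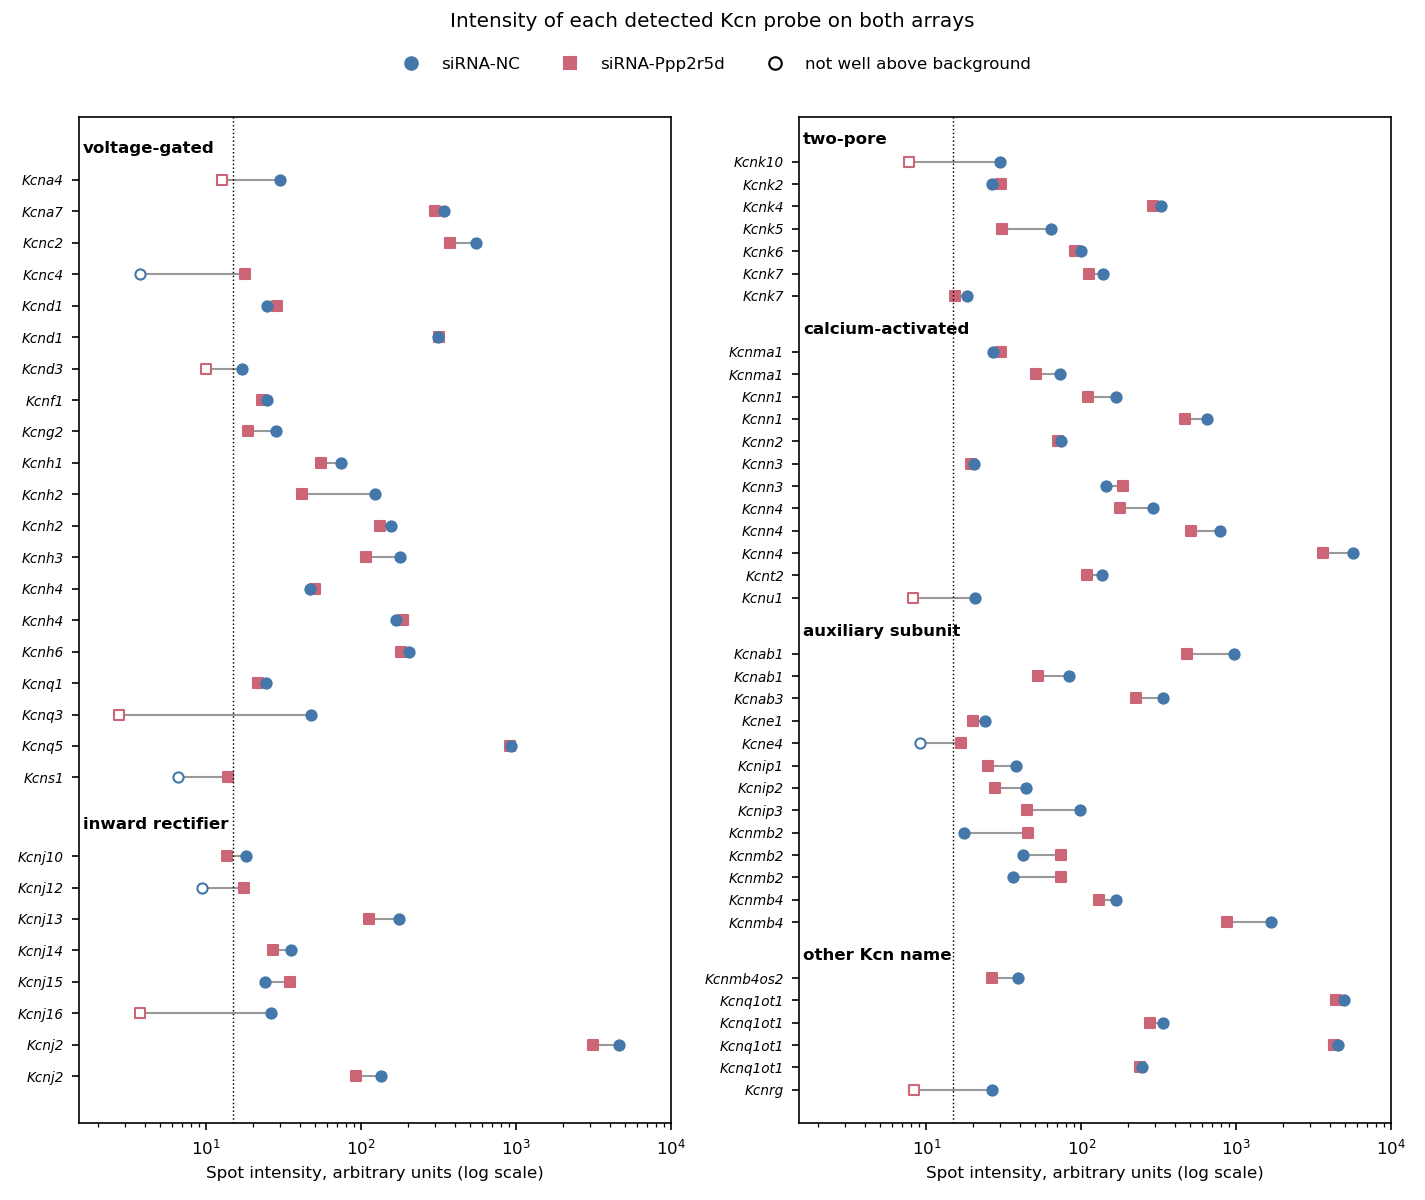
Spot intensity in arbitrary units on a log axis for 66 of the 72 detected *Kcn* probes, grouped by class, with siRNA-NC as circles and siRNA-*Ppp2r5d* as squares, filled where the spot was well above background. The dotted line at 14.9 marks, for siRNA-NC, the lowest signal that passed as well above background. Intensities are shown before scaling, and the 75th percentile was 592 with siRNA-NC and 518 with siRNA-*Ppp2r5d*. Squares lie to the left of circles for most probes, and the *Kcnmb2* squares lie to the right.

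At the 2-fold threshold of the study, 1 of 53 *Kcn* genes was higher and 1 was lower with siRNA-*Ppp2r5d*, each 1.89% of the detected genes. Over all detected genes, 1.01% were higher by 2-fold or more and 1.42% were lower by as much. At 1.5-fold, 2 *Kcn* genes (3.77%) were higher, beside 3.79% of all genes. On the lower side, 10 *Kcn* genes (18.9%) passed 1.5-fold, beside 5.38% of all genes. Of these 10, 5 were measured on both arrays and 5 are bounds. This count depends on the processing. After normexp correction 0 of 53 *Kcn* genes were 1.5-fold lower and 0 higher, beside 324 lower and 293 higher of all 21638 detected genes. The normexp offset shrinks the fold changes of dim genes by construction, so this count cannot tell whether their differences hold. With spike-in scaling 18 of 53 were lower and 1 higher, beside 2177 lower and 450 higher of 21638. The positive and significant flag of the scanner software admits dimmer spots. With it 16 of 72 *Kcn* genes were lower and 9 higher, beside 2989 lower and 2664 higher of 28398. Without bounds, 5 of the 42 *Kcn* genes on both arrays were at least 1.5-fold lower, beside 940 of 20311 genes. At least 1.5-fold higher were 2 of the 42, beside 678 of 20311. Because more of the *Kcn* genes are dim, this count without bounds was also taken within genes of a mean intensity under 100 on both arrays. There 3 of 22 *Kcn* genes (13.6%) were at least 1.5-fold lower, beside 8.63% of all such genes, and 2 of 22 were higher, beside 6.84%. The scanner error of a gene does not cover disagreement between its probes. Differences beyond 2 scanner errors, counted in the reported scaling alone, were found for 15 of the 42 *Kcn* genes on both arrays. Of these, 12 (28.6%) were lower, beside 9.25% of all genes on both arrays, and 3 (7.14%) were higher, beside 7.72%. Among the 12 lower genes were *Kcnab1*, *Kcnh2*, *Kcnh3*, *Kcnip3*, *Kcnj2*, *Kcnj13*, *Kcnk5*, *Kcnmb4*, *Kcnn1* and *Kcnn4*. The 3 higher genes were *Kcnh4*, *Kcnj15* and *Kcnmb2*.

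The median log2 fold change of the 42 *Kcn* genes was -0.16, with 26 lower and 16 higher, whereas all genes on both arrays had a median of 0.025 with 46.0% lower. For the 32 pore-forming genes alone the median was -0.057, with 18 lower and 14 higher. The sign of small class medians depends on how the arrays are scaled. The *Kcn* median minus that of all genes was -0.19 in the reported scaling, -0.13 under quantile normalization, -0.12 under cyclic loess and -0.013 with no filter on dim probes. Spike-in scaling moved the median of all genes to -0.15 and leaves this gap as it is by construction. After the normexp method of background correction (offset 50), the *Kcn* median was 0.014 and that of all genes 0.055, a gap of -0.041.

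**Figure D2:**
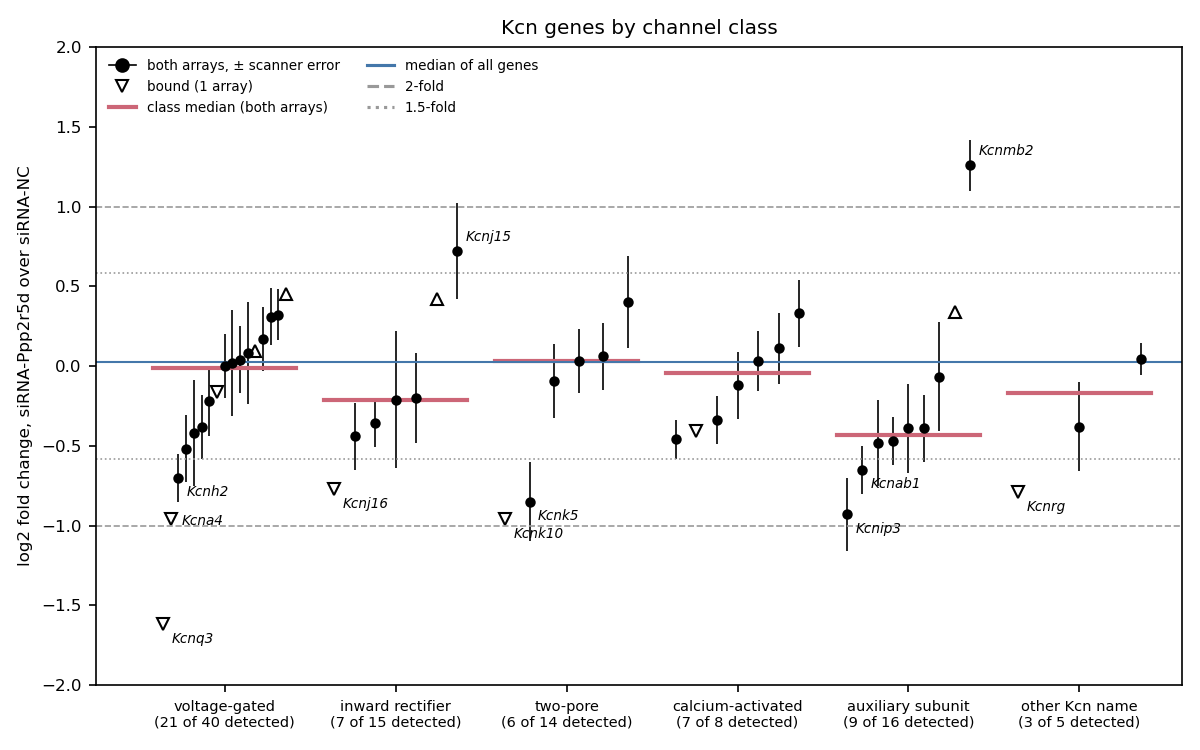
Log2 fold change of siRNA-*Ppp2r5d* over siRNA-NC for 49 of the 53 detected *Kcn* genes by class, with points and scanner error bars for genes on both arrays and triangles for bounds. Red lines are class medians over all genes of a class on both arrays and the blue line is the median of all genes, 0.025. The auxiliary subunits lie below 0 except *Kcnmb2* and the bound of *Kcne4*, with a median of -0.43, while the voltage-gated median is -0.01 and the two-pore median 0.032.

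Voltage-gated channels had a class median log2 fold change of -0.01 over 16 genes on both arrays, with 9 lower and 7 higher. When the arrays were scaled by quantiles, by the median of detected probes or by cyclic loess, and after normexp correction, the counts were 7 lower and 9 higher. They were 14 lower and 2 higher with spike-in scaling, with a median of -0.19, and 14 lower and 10 higher with the positive and significant flag, so no direction is given for the class. The highest value was 0.32 for *Kcnh4*. *Kcnc2*, a fast delayed rectifier of the Shaw-related family, had intensities of 554 and 372, a log2 fold change of -0.38. *Kcnc4*, of the same family, was detected with siRNA-*Ppp2r5d* alone, with intensities of 3.73 and 17.8, which gives a bound of 0.45 toward siRNA-*Ppp2r5d*. These 2 genes thus lay on opposite sides of 0.

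The ERG and ELK channels gave mixed values. *Kcnh2* had a log2 fold change of -0.70 as the mean of its probes, but the probe at 23825407 had intensities of 123 and 41.6, a log2 fold change of -1.37 ± 0.23 (scanner error). The probe at 23827188 had intensities of 155 and 133, a log2 fold change of -0.026 ± 0.21 (scanner error). The probes differ by more than their errors, and the 1.5-fold difference of the gene rests on the first of them. Both probes are assigned to RefSeq mRNAs. *Kcnh3* of the ELK family had intensities of 178 and 108, a log2 fold change of -0.52, and *Kcnh4* of the same family had 167 and 185 on its brighter probe, with a log2 fold change of 0.32 over both probes. *Kcnh1*, the EAG channel, was at -0.22 and *Kcnh6*, a further ERG channel, at 0.038, both within 2 scanner errors of 0.

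The channels that carry the transient outward and delayed rectifier currents of the mouse heart were dim or not detected. *Kcnd2*, a Shal-related channel of the fast transient outward current, and *Kcna5*, an ultrarapid delayed rectifier, were not well above background on either array. *Kcnd3*, the other Shal-related channel of that current, was detected with siRNA-NC alone, at 17.1 against 10, a bound of -0.16. *Kcna4*, a Shaker-related channel of the slow transient outward current, had intensities of 30 and 12.6 and was at least 1.95-fold lower by its bound. *Kcnd1*, the third Shal-related gene, had a log2 fold change of 0.31 over 2 probes, with 311 and 318 on its brighter probe. Among the detected genes of this group the values thus lay on both sides of 0.

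Genes of the *Kcnq* family, which encode channels of the M-current of neurons and of the slow delayed rectifier of the heart, were detected, but mostly not by the probes of their curated mRNAs. The array file lists up to 4 accessions for a probe, and a curated RefSeq mRNA is among them for 10 of the 20 *Kcnq* probes. Of those 10, 1 was well above background on at least 1 array, against 5 of the other 10. Over all *Kcn* probes, those of *Kcnq* included, 54 of 142 with a RefSeq mRNA were detected. Of *Kcn* probes with no RefSeq transcript listed, 13 of 31 were. The same shares over all probes of the array were not computed, so it is not known whether this is particular to *Kcnq*. *Kcnq5* had intensities of 920 and 905 on a probe assigned to an Ensembl transcript alone, a log2 fold change of 0.17, while its other 4 probes were not well above background on either array. *Kcnq1* had 24.3 and 21.6, a log2 fold change of 0.019 from 1 of 5 probes.

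*Kcnq3* is the *Kcn* gene that was over 2-fold lower. Its probe at 66114648 gave intensities of 47.4 with siRNA-NC and 2.75 with siRNA-*Ppp2r5d*, where it was not well above background. Set against the lowest signal well above background on that array, it was at least 3.08-fold lower, a bound of -1.62. This probe is assigned to an Ensembl transcript and no curated RefSeq mRNA. The second probe of *Kcnq3*, assigned to a RefSeq mRNA, had 3.06 and 2.69 and was not well above background on either array. The difference thus concerns the transcript that the first probe detects.

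The other voltage-gated genes were near 0 or near background. *Kcna7*, a Shaker-related gene, had intensities of 341 and 299, in the ratio of the array percentiles. The silent subunits *Kcnf1* and *Kcng2*, which form channels with other members, had log2 fold changes of 0.079 and -0.42, each within 2 scanner errors of 0. *Kcns1*, also a silent subunit, had 6.53 and 13.9 and a bound of 0.095.

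Inward rectifier genes had a class median of -0.21 over 5 genes on both arrays, with 4 lower and 1 higher, and after normexp correction 3 lower and 2 higher. *Kcnj2*, which carries the inward rectifier current of ventricular myocytes, gave intensities of 4620 with siRNA-NC and 3110 with siRNA-*Ppp2r5d* on 1 probe and 134 and 92.6 on the other. Its probes gave log2 fold changes of -0.38 and -0.34, and the gene was 1.28-fold lower at -0.36 ± 0.15 (scanner error). *Kcnj12*, its close relative in the heart, had 9.35 and 17.4 and was detected with siRNA-*Ppp2r5d* alone, a bound of 0.42. The subunits of the muscarinic potassium channel, *Kcnj3* and *Kcnj5*, and those of the ATP-sensitive channel, *Kcnj8* and *Kcnj11*, were not well above background on either array. Neither were *Abcc8* and *Abcc9*, which encode the sulfonylurea receptors that ATP-sensitive channels need. Of the inward rectifiers of the heart, *Kcnj2* was thus the gene measured on both arrays.

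The ends of the inward rectifier range were at genes better known from epithelia. *Kcnj13* had intensities of 174 and 113, a log2 fold change of -0.44 ± 0.21 (scanner error). *Kcnj15* had 24.1 and 34.9, a log2 fold change of 0.72 ± 0.30 (scanner error), or 1.65-fold higher. *Kcnj16* had 26.2 and 3.73 and was at least 1.70-fold lower by its bound. *Kcnj10* and *Kcnj14* were at -0.21 and -0.20, within 1 scanner error of 0.

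Two-pore channels had a class median of 0.032 over 5 genes, with 2 lower and 3 higher. With spike-in scaling 4 were lower and 1 higher. *Kcnk5*, an acid-sensitive leak channel, had intensities of 63.4 and 30.7, a log2 fold change of -0.85 ± 0.25 (scanner error), or 1.81-fold lower. *Kcnk10*, a relative of the stretch-activated channels, had 29.9 and 7.77 on 1 of its 2 probes and was at least 1.94-fold lower by its bound. *Kcnk2*, the stretch-activated leak channel found in the heart, had 26.3 and 30.4, a log2 fold change of 0.40 ± 0.29 (scanner error). *Kcnk3*, the other main leak channel of the heart, was not well above background on either array. *Kcnk4*, *Kcnk6* and *Kcnk7* lay between -0.094 and 0.060.

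Calcium-activated channels had a class median of -0.044 over 6 genes, with 3 lower and 3 higher. With spike-in scaling 5 were lower and 1 higher, with a median of -0.22. Taking the probe with the highest mean signal gave 4 lower and 2 higher, and the positive and significant flag 5 lower and 3 higher. The other alternatives gave 3 lower and 3 higher. *Kcnn4* had intensities of 5640 and 3630 on the probe at 25170161, 788 and 511 on the probe at 25169184, and 288 and 177 on the probe at 25166737. The log2 fold changes were -0.44, -0.43 and -0.51, and the gene was 1.38-fold lower at -0.46 ± 0.12 (scanner error). Under the alternatives of processing its log2 fold change stayed between -0.64 and -0.41. *Kcnn1*, a small-conductance channel, had 647 and 465 on 1 probe and 168 and 111 on another, with a log2 fold change of -0.34 ± 0.15 (scanner error). *Kcnn3*, a further small-conductance channel, had 145 and 185 on its brighter probe and a log2 fold change of 0.33, while *Kcnn2* had 74.3 and 70.4 and 0.11.

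*Kcnma1*, the pore of the large-conductance calcium-activated channel, was dim, with 4 of its 6 probes not well above background on either array. One of the others had intensities of 72.7 and 51.3, a log2 fold change of -0.31, and the second had 26.7 and 30.3, a log2 fold change of 0.38. The mean of 0.032 averages over this disagreement, and no direction is given for *Kcnma1*. *Kcnt2* was at -0.12, and *Kcnu1* had 20.5 and 8.24, a bound of -0.41.

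Auxiliary subunits had a class median of -0.43 over 8 genes on both arrays, with 7 lower and 1 higher. The count was the same under all scaling alternatives run. It was 5 lower and 3 higher after normexp correction, 6 lower and 2 higher with no filter on dim probes, and 6 lower and 4 higher with the positive and significant flag, where 10 genes enter and the median was -0.23. The potassium channel-interacting proteins, calcium sensors that bind Shal-related channels, were on the lower side for all 3 genes detected. *Kcnip3* had intensities of 97.3 and 44.6 on 1 of its 3 probes, a log2 fold change of -0.93 ± 0.23 (scanner error). Its other probes were not well above background on either array. *Kcnip2*, which the transient outward current of the heart depends on, had 43.8 and 27.6, a log2 fold change of -0.48 ± 0.27 (scanner error) that became 0.32 after normexp correction. *Kcnip1* had 37.6 and 25.1, a log2 fold change of -0.39. Only *Kcnip3* exceeded 2 scanner errors among these.

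The cytoplasmic beta subunits of Shaker-related channels were also on the lower side. *Kcnab1* had intensities of 965 and 478 on 1 probe and 83.7 and 52.7 on the other. The log2 fold changes were -0.82 and -0.48, and the gene was 1.57-fold lower at -0.65 ± 0.15 (scanner error). *Kcnab3* had 336 and 224, a log2 fold change of -0.39 ± 0.21 (scanner error), and *Kcnab2* was not well above background on either array. *Kcne1*, the subunit of the slow delayed rectifier, had 23.8 and 19.9 and a log2 fold change of -0.066. *Kcne4*, of the same family, had 9.14 and 16.6 and a bound of 0.34.

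The beta subunits of the large-conductance calcium-activated channel went in opposite directions. *Kcnmb2* gave intensities of 42.3 with siRNA-NC and 74.3 with siRNA-*Ppp2r5d* on the probe at 32097218, 17.6 and 45.1 on the probe at 32097625, and 36.3 and 73.5 on the probe at 32098621. The log2 fold changes were 1.0, 1.55 and 1.21, and the gene was at 1.26 ± 0.16 (scanner error). It was higher on each of its 3 probes, and all 6 signals are below an intensity of 100. *Kcnmb4*, which was chosen after its values were seen, had 1680 and 875 on 1 probe and 167 and 129 on the other. Its log2 fold changes were -0.75 and -0.19, and the gene was at -0.47 ± 0.15 (scanner error). *Kcnmb1*, the beta subunit of smooth muscle, and *Kcnmb3* were not well above background on either array.

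**Figure D3:**
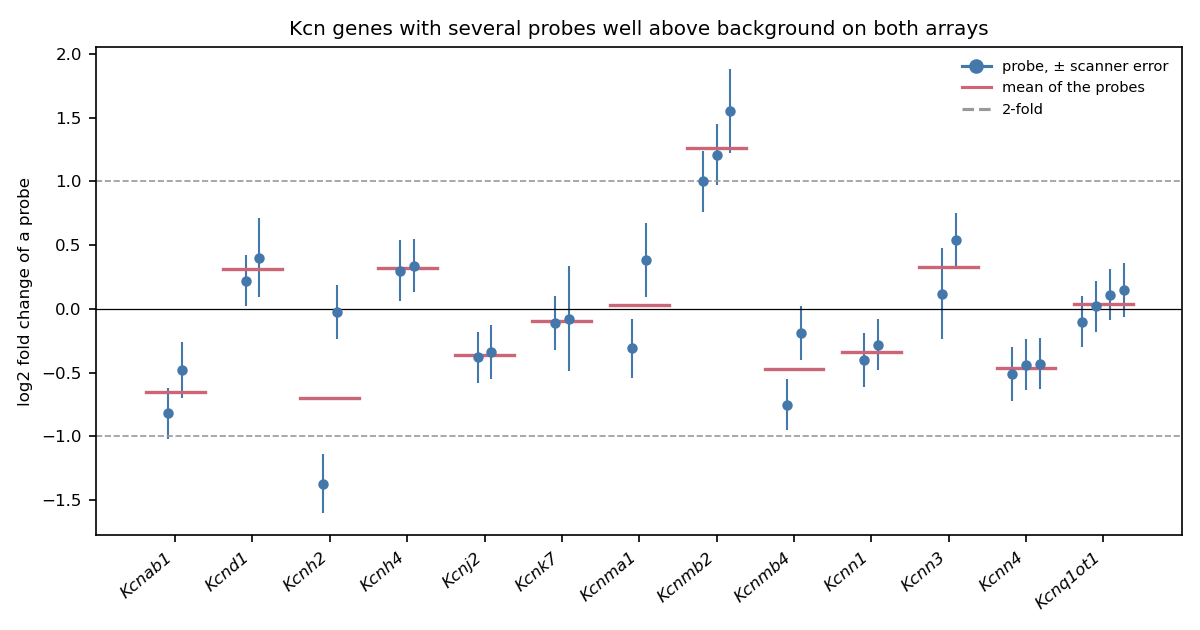
Log2 fold change of each probe, with its scanner error, for the 13 *Kcn* genes that have several probes well above background on both arrays, with the mean of the probes as a red line. The 3 probes of *Kcnmb2* lie at 1.0 or above and the 3 of *Kcnn4* between -0.51 and -0.43, whereas the 2 probes of *Kcnh2* lie at -1.37 and -0.026.

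Agreement between probes is the one repeat measurement that these arrays hold for a *Kcn* gene, since each *Kcn* probe has 1 spot. The probes read the same RNA, so it does not cover the culture. Of the 13 *Kcn* genes with several probes on both arrays, 11 had all such probes on the same side of 0, and the other 2 were *Kcnma1* and *Kcnq1ot1*. The 11 include *Kcnh2*, at -1.37 and -0.026, and *Kcnmb4*, at -0.75 and -0.19, whose probes differ in size. The same share over all genes with several probes was not computed. The other 29 genes on both arrays rest on 1 such probe, among them *Kcnip3*, *Kcnk5* and *Kcnj15*. For some of them, such as *Kcnip3*, the array holds further probes that did not pass. Of the 53 detected genes, 6 were detected only by probes with no curated RefSeq transcript listed, among them *Kcnh6*, *Kcnn2*, *Kcnq1*, *Kcnq3* and *Kcnq5*. How often this holds over all genes of the array was not computed.

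Among the remaining *Kcn* names, *Kcnq1ot1*, an imprinted non-coding RNA transcribed antisense to *Kcnq1*, had intensities of 4940 and 4390 on the probe at 150409006 of chromosome 7 and 4540 and 4280 on the probe at 150410464. Over 4 probes its log2 fold change was 0.042 ± 0.10 (scanner error). The probes of *Kcnq1* and *Kcnq1ot1* are on opposite strands. *Kcnmb4os2*, an RNA from the strand opposite to *Kcnmb4*, had 39.2 and 26.4, a log2 fold change of -0.38 ± 0.28 (scanner error). *Kcnrg* had 26.6 and 8.37 on 1 probe and was at least 1.73-fold lower by its bound. Its other probe was left out as an outlier spot, and with outlier spots kept the log2 fold change of *Kcnrg* was -0.19.

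Genes of proteins that work with potassium channels were described from a list of 30, of which 23 were detected and 22 on both arrays. *Lrrc55*, a gamma subunit of the large-conductance calcium-activated channel, had intensities of 52.6 and 15.7 on 1 of its 3 probes. Its log2 fold change was -1.55 ± 0.33 (scanner error). *Atp1b2*, a beta subunit of the sodium-potassium pump, had 41.8 and 15.6 on 1 of its 2 probes. Its log2 fold change was -1.23 ± 0.34 (scanner error). *Hcn4*, the main pacemaker channel of the sinus node, had 17.3 and 28.8, a log2 fold change of 0.92 ± 0.35 (scanner error). After normexp correction these values were -0.39, -0.26 and 0.35. All 3 genes are dim, and the other detected genes of the list differed by less than 1.5-fold, among them the pump subunits *Atp1b1* at -0.45 and *Atp1b3* at 0.36. Of the partners of Shal-related channels, *Dpp10* was at -0.26 and *Dpp6* was not well above background on either array.

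The genes that passed 1.5-fold, the detected channels of the heart and the ends of each class were followed through up to 10 alternatives of processing. Of these 29 *Kcn* genes, 23 had the same sign under every alternative. Part of them were chosen for their size in these same values, which limits how many signs can change. The share over all genes was not computed. The alternatives process the same arrays again and give no replicate check. *Kcnmb2* stayed past 2-fold under 9 of 10 alternatives and was at 0.57 after normexp correction. *Kcnq3* stayed at least 2-fold lower under 9 of 10 and was at -0.34 after normexp correction. The normexp offset of 50 shrinks the fold changes of dim probes such as these by construction.

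**Figure D4:**
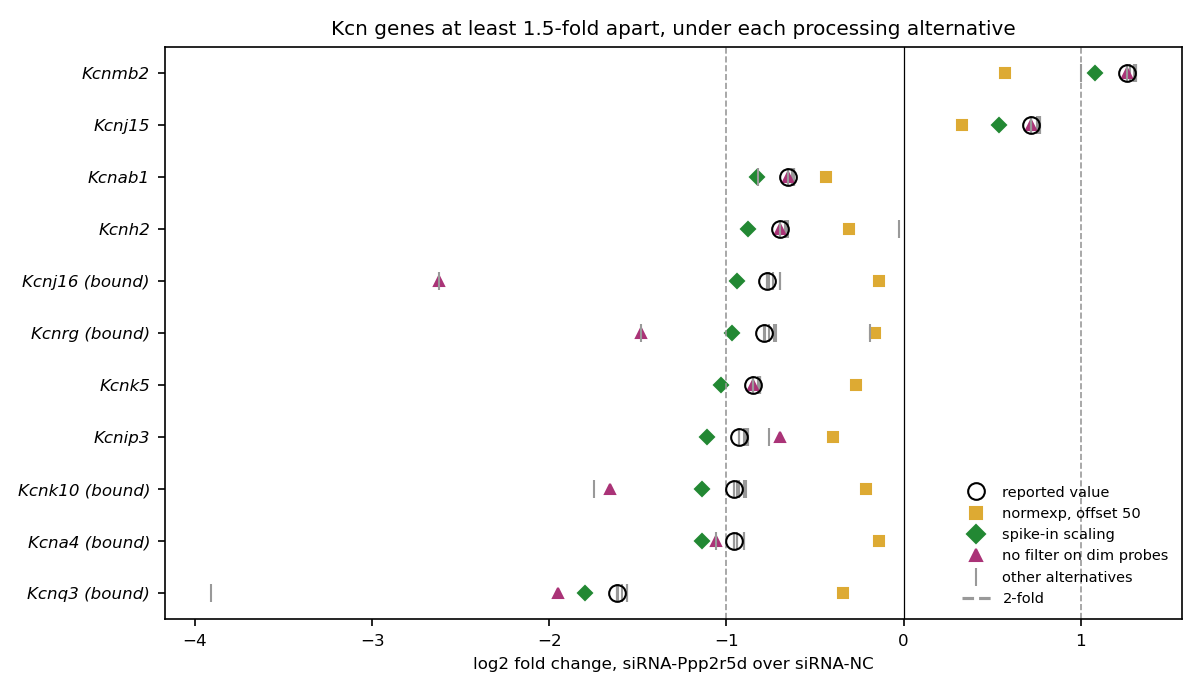
Log2 fold change of 11 of the 12 *Kcn* genes that were at least 1.5-fold apart, as reported (open circles) and under each alternative (other symbols), with genes known by a bound marked. All symbols of a gene lie on 1 side of 0, and the normexp values (squares) lie closest to 0 for all genes except *Kcnh2*, where the probe with the highest mean signal gives -0.026.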

How the data were processed

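RNA of MCMs was measured on 2 one-colour Agilent microarrays, 1 per group, and the sample labels gave the groups. The authors deposited scanner files in which Feature Extraction 10.7.1.1 gives each spot an intensity corrected for background within the array, and a table of log2 values whose scale and normalization are not stated. The deposited log2 values were matched by quantile normalization of the intensities on the log2 scale, where fold changes differed by a median of 0.000401, and both columns had a median of 5.02. The array annotation is of build mm9.

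The values were computed from the intensity. Control spots and outlier spots were left out, log2 was taken and each array was centred on its 75th percentile. A gene's log2 fold change is the mean over its probes well above background on both arrays. Where only 1 array passed, the fold change is a bound, in which the dim signal was raised to the lowest value well above background of that array if it lay under it. Scanner errors of the 2 signals were combined as a root sum of squares. For a gene, the errors of its probes were combined likewise and divided by the number of probes. How far the probes of a gene disagree does not enter this error. A t-test named in the methods was not run, because there was 1 array per group. The steps were tested on simulated data.

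The members, classes, partner genes and markers were chosen with earlier results of these data known. Named genes are all *Kcn* genes at least 1.5-fold apart, the channels of the heart and 3 calcium-activated channels whatever their values, the ends of each class, genes whose probes disagree by over 2-fold and partner genes at least 1.5-fold apart. Some genes under this rule are not reported here. Other genes named for a class were chosen after their values were seen. Alternatives were cyclic loess, the median of detected probes, quantile normalization, spike-in scaling, normexp with an offset of 50, the deposited log2 values, other filters on dim probes and outliers, the probe with the highest mean signal, and thresholds of 1.5-fold and 4-fold. The software was Python 3.11.15 (pandas 2.3.3, NumPy 2.4.6, matplotlib 3.10.9) and limma 3.58.1 in R 4.3.3.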

Additional observations from a re-analysis of the deposited data

How the results depend on the processing

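No paired analysis was possible because each group has 1 array, and no array could be left out for the same reason. The number of arrays and signal over background limit all values, since 22 of the 42 *Kcn* genes on both arrays are dim. The median log2 fold change of *Kcn* genes, -0.16, became -0.11 under quantile normalization, -0.12 under cyclic loess and in the deposited log2 values, -0.34 with spike-in scaling, 0.014 after normexp correction and 0.020 with no filter on dim probes, where all 98 genes enter. The counts at 2-fold, 1 lower and 1 higher, became 6 lower with spike-in scaling, 0 lower and 0 higher after normexp correction, 7 lower and 6 higher with no filter, 9 lower and 6 higher with the positive and significant flag, 10 lower and 2 higher at 1.5-fold, and 0 of each at 4-fold. With genes measured on both arrays only, 0 were lower, since *Kcnq3* is a bound. After spike-in scaling 132 of all genes were higher and 546 lower, from 219 and 308, and 36 of 42 *Kcn* genes were lower. After normexp correction 62 of all genes were higher and 44 lower, again of 21638 detected. With no filter 937 of 37000 genes were higher and 1106 lower. With the positive and significant flag, where 72 *Kcn* genes enter, 1078 of 28398 genes were higher and 1290 lower. *Ppp2r5d*, at -2.61, was at -2.78 with spike-in scaling and -2.49 after normexp correction. Signs differed for *Kcne1*, at 0.12, and *Kcnip2*, at 0.32, after normexp correction, for *Kcnn2*, *Kcnq1* and *Kcnq1ot1* with spike-in scaling, at -0.065, -0.16 and -0.14, and for *Kcnma1* with spike-in scaling and when the brightest probe was taken, at -0.15 and -0.31. Apart from what a threshold, a filter or the offset changes by construction, the cause was not tested.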
